A study of Mus musculus with 15 samples.

Results

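The nuclear genes for the subunits of the mitochondrial respiratory chain were followed in whole lung of wild-type mice and of homozygous mutants, with and without ovalbumin challenge. A gene was taken if its platform symbol begins with Nduf, Uqcr, Atp5 or Cox4 to Cox8, or is Sdha, Sdhb, Sdhc, Sdhd, Cyc1 or Cycs. Symbols beginning with Ndufaf, which are assembly factors, were left out. A probe also needed a detection p, the deposited measure of its signal against background, under 0.05 on at least 3 of the 15 arrays, and the brightest such probe stands for its gene. These conditions gave 75 subunit genes of the 10194 genes tested. They comprise 33 genes of complex I, 3 of complex II, 7 of complex III, the cytochrome c gene Cycs, 16 of complex IV and 15 of ATP synthase. Of 82 such genes on the array, 7 did not pass. Ndufs1, Uqcrfs1 and Uqcrq were detected on 0 arrays, and Atp5k, Cox7b2, Cox8c and Ndufb11 on at most 1. Sdha was not analysed here. Of the members, 73 were detected on all 15 arrays, and Cox8b and Ndufab1 on 14.

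Every mouse was of strain C57BL/6 and 22 weeks old, and each array holds the lung RNA of its own mouse. Wild types were unchallenged (n = 4) or given OVA challenge (n = 4), and homozygotes were unchallenged (n = 3) or given OVA challenge (n = 4). Ovalbumin (OVA), a protein of egg white, is a common allergen for provoking asthma-like inflammation in mouse airways. The labels call the mutants only homozygote, and the series title names IFIT2. Neither the kind of mutation nor how the challenge was given is stated in the sources used here.

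The respiratory chain sits in the inner mitochondrial membrane. Complex I takes electrons from NADH and complex II takes them from succinate; complex III passes them to cytochrome c, and complex IV passes them to oxygen. The proton gradient built along the way drives ATP synthase. A few subunits come from mitochondrial DNA, and no probe for those was tested here. All genes described below lie in the nucleus, and several subunits of complex IV have a widely expressed form and another form found mainly in heart, skeletal muscle or brown fat.

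Both Ifit2 probes were detected on 8 of 8 wild-type arrays and 0 of 7 homozygote arrays. The design text calls the mutants male, but both probes of Xist, an RNA of female cells, were detected on 15 of 15 arrays, whereas the Y-linked genes Eif2s3y, Uty and Kdm5d were detected on 1, 2 and 0. Mean signal lay between 494.7 and 666 intensity units on unchallenged arrays and between 319.9 and 502.3 on challenged ones. The tissue label was checked with markers of alveolar type 2 cells, which make surfactant: 6 of 6 passed the detection filter, with a mean log2 intensity of 12.61 to 12.85 on unchallenged and 12.03 to 12.56 on challenged arrays. Genes of the exocrine pancreas, which lung does not make, averaged 5.18 to 5.42 without challenge. They stood at 12.92, 11.72, 6.10 and 5.97 in the 4 challenged wild types and at 10.16, 14.13, 5.76 and 5.82 in the 4 challenged homozygotes. Without the 4 arrays that stand high, 19 of 23 called values of the named members stayed called. The wild-type calls of Ndufb4, Sdhb, Cycs and Cox7b did not, and their values are given with each gene.

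The first question was how the subunit genes differed between challenged and unchallenged wild-type lung. Of the 75 genes, 15 rose and 1 fell (limma, Benjamini-Hochberg adjusted p under 0.05), among them Atp5e of ATP synthase (1.94-fold higher), Cycs (1.75-fold higher) and Ndufb4 of complex I (1.65-fold higher). Calls in either direction took 21.3% of the members against 22.5% of all 14396 probes tested, so the share called was near the background. The direction differed: 20% of the members were called higher against 9.8% of all probes, and 1.33% lower against 12.7%. The fitted change was above 0 in 64 of the 75 members, with a median log2 change of 0.22, against 48.6% of all probes and a median of -0.01. Challenged and unchallenged wild types did not overlap for 15 members on the higher side, or 20%, and for 1 on the lower side, where the background was 12.9% and 15.9%.

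In homozygotes 15 members were called higher and 1 lower. That total was 9 without unchallenged homozygote 2, 10 without unchallenged homozygote 1 and 25 without challenged wild type 4. The share of all probes called without each of these arrays is not given. In homozygotes 21.3% of the members were called in either direction, below the 30.5% of all probes. By direction 20% were higher and 1.33% lower, against 13.5% and 17% of all probes. The median log2 change of the members was 0.32 and that of all probes -0.02, and 64 of 75 members were above 0 against 48.1% of all probes. The groups did not overlap for 34 members on the higher side (background 16.8%) and 3 on the lower side (21.3%). The genotypes shared 12 members called higher and 1 called lower, which is 81.25% of the calls in each genotype, and 67 of the 75 members had the same sign. The same shares over all probes are not given here, so whether this overlap is particular to the members cannot be said. The groups compared in wild types and in homozygotes share no mouse, but a common estimate of the spread.

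These directions rest on the normalization. For this comparison the deposited raw signals were quantile-normalized, which gives every array the same distribution. With arrays only set to a common median, the median log2 change of all probes became -0.31 in wild types and -0.54 in homozygotes, and the members' medians turned to -0.14 and -0.31. Relative to all probes the members then stood 0.17 and 0.22 higher, compared with 0.24 and 0.34 after quantile normalization. The calls became 1 higher and 2 lower in wild types and 1 higher and 14 lower in homozygotes, while all probes went from 1411 higher and 1829 lower to 558 and 4600, and from 1944 and 2448 to 540 and 7391. Atp5e was the member still called higher, in wild types (0.52, limma adjusted p = 0.0195) and in homozygotes (0.48, adjusted p = 0.0263). All statements of higher and lower below are after quantile normalization. With each array's mean signal as a covariate, 5 members were called in wild types and 4 in homozygotes, all higher, and 17 of the 23 called values of the named members no longer passed. Mean signal was itself lower on most challenged arrays. That fit therefore cannot separate signal from challenge, and its lost calls do not show which of them the changes follow. The share of all probes called in it is not given.

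**Figure D1:**
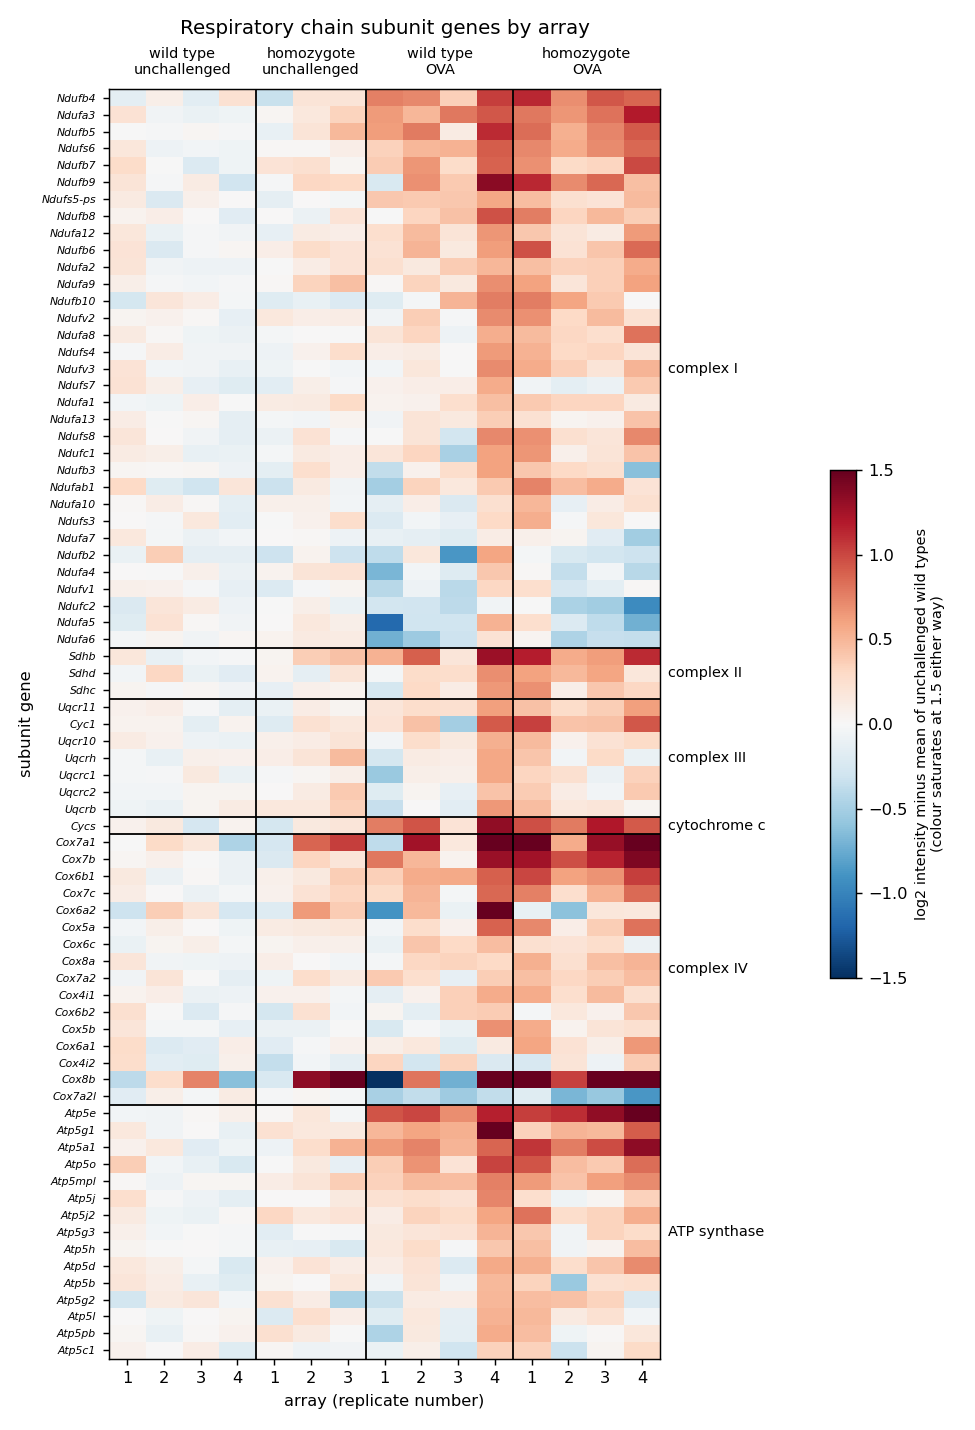
Log2 intensity of the 75 subunit genes (rows, by complex) on the 15 arrays (columns, by group) minus the mean of the 4 unchallenged wild types, after quantile normalization; red is higher and blue lower. Challenged wild type 4 and challenged homozygote 1 show the most red, and with median scaling in place of quantile normalization the direction of most members turns.

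The challenged wild types differed among themselves. Taken over the 75 members, the median deviation from unchallenged wild types was -0.01, 0.26, 0.11 and 0.60 (log2) in challenged wild types 1 to 4. In the challenged homozygotes it was 0.52, 0.24, 0.32 and 0.41. Unchallenged wild types lay between -0.06 and 0.06 and unchallenged homozygotes between -0.01 and 0.13. All 4 challenged homozygotes thus stood above every unchallenged array in this median. Challenged wild type 1 lay within the range of the unchallenged wild types. Challenged wild type 3 lay above that range, but within that of the unchallenged homozygotes. Without challenged wild type 4 the median log2 change in wild types was 0.10, compared with 0.22 over all arrays. By complex, the median in challenged wild type 4 was 0.60 for complex I, 0.70 for complex II, 0.58 for complex III, 0.62 for complex IV and 0.57 for ATP synthase. The complexes lay further apart on other arrays: challenged homozygote 3 had 0.24 for complex I, 0.59 for complex II and 0.22 for complex III, and challenged wild type 1 had -0.18 for complex III and 0.15 for ATP synthase.

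The gene starts of 8 named members called in both genotypes are shown, 7 of them higher and Cox7a2l lower, so that members that moved alike can be read side by side. Each window runs from 120 bases before to 30 bases after the start of the gene, 5′ to 3′ on the gene's own strand, from RefSeq on build GRCm38.p6. Capitals mark matches, on either strand, to GCGCA followed by any base and GCGC (a site of the factor NRF1), CCGGAAGT (a site of ETS factors such as GABP) or AAGATGGC (a site of YY1), factors known as regulators of nuclear genes for mitochondria. In the order shown, the windows are chr2:174464072-174464221 (minus strand), chr6:50566540-50566689 (minus strand), chrX:106015580-106015729 (plus strand), chr7:30626085-30626234 (minus strand), chr16:37654339-37654488 (minus strand), chr7:3617253-3617402 (plus strand), chr13:73328453-73328602 (minus strand) and chr17:83514304-83514453 (minus strand).
Atp5e: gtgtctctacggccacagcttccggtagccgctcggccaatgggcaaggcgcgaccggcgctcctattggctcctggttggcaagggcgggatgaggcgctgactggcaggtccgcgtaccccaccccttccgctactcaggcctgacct
Cycs: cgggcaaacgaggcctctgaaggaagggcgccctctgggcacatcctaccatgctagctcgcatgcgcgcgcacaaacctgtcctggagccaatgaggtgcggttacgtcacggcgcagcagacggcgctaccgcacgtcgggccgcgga
Cox7b: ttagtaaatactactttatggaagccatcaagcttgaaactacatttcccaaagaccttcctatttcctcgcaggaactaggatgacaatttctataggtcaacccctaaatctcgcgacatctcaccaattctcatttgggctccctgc
Cox6b1: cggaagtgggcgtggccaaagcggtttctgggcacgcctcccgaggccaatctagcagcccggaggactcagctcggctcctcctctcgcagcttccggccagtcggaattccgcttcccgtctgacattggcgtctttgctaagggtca
Ndufb4: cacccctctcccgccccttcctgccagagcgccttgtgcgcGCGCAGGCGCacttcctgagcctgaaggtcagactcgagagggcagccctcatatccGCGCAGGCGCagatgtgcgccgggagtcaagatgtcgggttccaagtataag
Ndufa3: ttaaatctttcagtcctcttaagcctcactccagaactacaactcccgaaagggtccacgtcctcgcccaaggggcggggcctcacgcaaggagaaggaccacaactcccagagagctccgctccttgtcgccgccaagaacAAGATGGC
Ndufs6: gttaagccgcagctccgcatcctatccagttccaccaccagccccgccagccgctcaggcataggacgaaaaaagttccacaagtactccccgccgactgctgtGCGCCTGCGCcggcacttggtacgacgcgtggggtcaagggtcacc
Cox7a2l: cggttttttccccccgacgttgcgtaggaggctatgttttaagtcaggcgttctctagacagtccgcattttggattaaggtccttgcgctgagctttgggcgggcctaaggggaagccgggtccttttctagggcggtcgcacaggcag

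Ndufb4 has a pair of NRF1 matches, Ndufs6 has 1, and Ndufa3 has a YY1 match at the end of the window. The windows of Atp5e, the member with the largest called change, and of Cycs, Cox7b, Cox6b1 and Cox7a2l hold no exact match to the 3 motifs. Sites that differ by 1 base were not counted, such as tcgcatgcgc in Cycs beside the NRF1 letters, so a missing match does not mean a missing site. Over the full windows of the table, from 250 bases before to 50 after the start, 62 members had an entry and 13 had none. The NRF1 motif was in 13 of the 62 members (21%) against 5.19% of 27025 genes, the ETS motif in 8.06% against 4.31%, and the YY1 motif in 16.1% against 3.19%. Any of the 3 was found in 26 members (41.9%) and in 11.7% of all genes. Unlike the members, the 27025 genes were not limited to those detected in this lung, and a share over the genes tested is not given. Mean GC content was 57.6% in the members' windows and 53.8% in all windows. Of the 18 members called higher in either genotype, 15 had an entry and 7 of these held a motif; of the 57 others, 47 had an entry and 19 held a motif. A match is only a run of letters, and binding was not measured.

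Complex I, where NADH is oxidized, had 6 of 33 members called higher and 0 lower in wild types, with a median log2 change of 0.21. In homozygotes it also had 6 higher and 0 lower, with a median of 0.30. The share called higher was 18.2% in each genotype, against 9.8% and 13.5% of all probes. Ndufb4, an accessory subunit in the membrane arm, read 7.32, 7.56, 7.31 and 7.70 (log2 intensity) in the 4 unchallenged wild types and 8.23, 8.20, 7.83 and 8.51 in the challenged ones. In homozygotes it read 7.14, 7.67 and 7.67 without challenge and 8.61, 8.17, 8.41 and 8.35 with it. Challenged and unchallenged arrays did not overlap in either genotype, and the log2 change was 0.72 ± 0.17 (SE; adjusted p = 0.00796) and 0.89 ± 0.18 (adjusted p = 0.00291). Without the 4 arrays high in pancreas genes the wild-type change was 0.70 (adjusted p = 0.0506).

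Ndufa3, another accessory subunit, read 11.18, 10.90, 10.85 and 10.89 in unchallenged and 11.59, 11.45, 11.74 and 11.88 in challenged wild types, a change of 0.71 ± 0.14 (SE; limma adjusted p = 0.00295). In homozygotes it went from 10.98, 11.11 and 11.29 to 11.75, 11.61, 11.77 and 12.14, a change of 0.69 ± 0.15 (adjusted p = 0.00406). Again no challenged array fell within the unchallenged range. Ndufs6, a subunit that holds a zinc ion, rose by 0.57 ± 0.12 in wild types (adjusted p = 0.00559) and by 0.67 ± 0.13 in homozygotes (adjusted p = 0.00276). Ndufb5 rose in both genotypes as well, by 0.66 and 0.57. The probe annotated to Ndufs5-ps, a pseudogene symbol, was also called higher in both, and a probe for such a copy may take signal from its parent gene.

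Ndufb7 was called higher in wild types (0.55 ± 0.18, adjusted p = 0.0372) and gave 0.41 ± 0.19 in homozygotes (adjusted p = 0.112). Ndufa8 was called in homozygotes (0.47 ± 0.16, adjusted p = 0.0341) and gave 0.25 ± 0.14 in wild types (adjusted p = 0.237); its other probe, ILMN_2682019, gave -0.08 in homozygotes (adjusted p = 0.842) and -0.01 in wild types (adjusted p = 0.976). Neither difference between genotypes passed the interaction test, in which 0 of 14396 probes were called. Ndufv1, the subunit that binds NADH and flavin, did not pass in either genotype (-0.15 ± 0.16 and 0.03 ± 0.17). The lowest values of complex I were those of Ndufa6, -0.34 in wild types, and Ndufc2, -0.48 in homozygotes, and neither was called. Ndufa4, now counted as a subunit of complex IV, gave -0.13 and -0.35 and was not called. Probes disagreed for Ndufa5: its brightest gave -0.31 and -0.35, uncalled, and another, ILMN_2691460, was called at 0.50 (adjusted p = 0.00940) and 0.44 (adjusted p = 0.0197).

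Complex II links the chain to the tricarboxylic acid cycle, and 3 of its genes were tested. Sdhb, its iron-sulfur subunit, read 9.59, 9.30, 9.38 and 9.41 in unchallenged and 9.94, 10.32, 9.61 and 10.71 in challenged wild types (0.72 ± 0.21 SE, limma adjusted p = 0.0262). In homozygotes it read 9.46, 9.79 and 9.86, then 10.60, 9.98, 10.04 and 10.54 (0.59 ± 0.23, adjusted p = 0.0658). The groups did not overlap in either genotype, although the homozygote change missed the threshold. The call in wild types ended without unchallenged wild type 2, 3 or 4 or challenged wild type 2 or 4 (0.53 to 0.72, adjusted p = 0.0594 to adjusted p = 0.0710), and without the 4 arrays high in pancreas genes (0.74, adjusted p = 0.0833). The other Sdhb probes gave 0.13 (ILMN_2769064, adjusted p = 0.823) and 0.46 (ILMN_2592389, adjusted p = 0.206) in wild types, and the mean over the probes, 0.44, was not called (adjusted p = 0.110). The membrane anchors Sdhc and Sdhd were not called, with 0.20 and 0.30 in wild types and 0.37 and 0.43 in homozygotes.

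The median log2 change of complex III was 0.13 in each genotype. In wild types 0 of its 7 members were called, where 22.5% of all probes were. In homozygotes 1 was called higher, or 14.3%, near the 13.5% of all probes. That member was Uqcr11, a small subunit, at 0.41 ± 0.13 (SE; limma adjusted p = 0.0279) in homozygotes and 0.33 ± 0.12 (adjusted p = 0.0643) in wild types. It read 11.92, 12.13 and 12.06 in unchallenged and 12.46, 12.30, 12.39 and 12.64 in challenged homozygotes, with no overlap. The call ended without unchallenged homozygote 1, 2 or 3 or challenged homozygote 4 (0.35 to 0.46, adjusted p = 0.0540 to adjusted p = 0.104), and with median scaling the value was -0.17. Cyc1, the cytochrome c1 subunit, gave 0.27 ± 0.24 and 0.65 ± 0.26, and the core protein Uqcrc1 gave 0.04 ± 0.19 and 0.17 ± 0.20, none of them called.

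Cycs encodes cytochrome c, which carries electrons from complex III to complex IV. Its brightest probe read 7.26, 7.34, 6.94 and 7.25 in unchallenged and 7.96, 8.14, 7.40 and 8.52 in challenged wild types. In homozygotes it read 6.94, 7.34 and 7.38, then 8.17, 7.98, 8.39 and 8.12. Challenged arrays were above unchallenged ones in both genotypes, with challenged wild type 3 nearest to them. The change was 0.81 ± 0.20 (SE; limma adjusted p = 0.0107) and 0.94 ± 0.21 (adjusted p = 0.00539). A second Cycs probe, ILMN_3076459, detected on 9 arrays, gave -0.25 (adjusted p = 0.50) and -0.33 (adjusted p = 0.354), and the mean over both probes was not called (0.28 and 0.31). Without the 4 arrays high in pancreas genes the brightest probe gave 0.76 in wild types (adjusted p = 0.0767).

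Complex IV, cytochrome c oxidase, had 2 of 16 members called higher and 1 lower in wild types, and 3 higher and 1 lower in homozygotes, with medians of 0.23 and 0.35. The shares called higher, 12.5% and 18.8%, were near the 9.8% and 13.5% of all probes. The share called lower was 6.25% in each genotype, against 12.7% and 17% of all probes. Cox6b1, a subunit on the face where cytochrome c docks, read 11.92, 11.68, 11.79 and 11.68 in unchallenged and 12.12, 12.33, 12.34 and 12.67 in challenged wild types. In homozygotes it read 11.84, 11.92 and 12.14, then 12.77, 12.37, 12.44 and 12.81. The groups did not overlap, the change was 0.60 ± 0.14 (SE; limma adjusted p = 0.00824) and 0.63 ± 0.15 (adjusted p = 0.00731), and the other Cox6b1 probe was called higher in both genotypes too. Cox6b2, the testis form, gave 0.16 and 0.18 and was not called.

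Cox7b, a small structural subunit, read 7.04, 7.10, 7.01 and 6.93 in unchallenged and 7.81, 7.52, 7.07 and 8.32 in challenged wild types. In homozygotes it went from 6.81, 7.34 and 7.21 to 8.28, 7.98, 8.18 and 8.42. The homozygote groups lay apart, with a change of 1.10 ± 0.23 (SE; limma adjusted p = 0.00329), the largest of complex IV. In wild types challenged array 3 lay within the unchallenged range, and the change was 0.66 ± 0.21 (adjusted p = 0.0368). That call ended without any 1 of the 8 wild-type arrays except challenged array 3 (0.45 to 0.71, adjusted p = 0.0532 to adjusted p = 0.0878), and without the 4 arrays high in pancreas genes (0.67, adjusted p = 0.126). Cox8a, the widely expressed form of its subunit, was called in homozygotes (0.41 ± 0.12, adjusted p = 0.0238) and not in wild types (0.23 ± 0.11, adjusted p = 0.170). Without unchallenged homozygote 2 or 3 the homozygote change was 0.40 and 0.38 (adjusted p = 0.0791 and adjusted p = 0.0790). The call also ended with the replicate number as a block, in a fit to only the groups compared, and with brown fat markers as a covariate (0.38 to 0.41, adjusted p = 0.0598 to adjusted p = 0.0678). With median scaling Cox8a gave -0.13 in homozygotes.

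Cox7a2l is known as an assembly protein for supercomplexes of complexes III and IV, not as a catalytic subunit. Whether its protein does so in these mice was not tested. Cox7a2l was the member that fell. It read 10.61, 10.87, 10.75 and 10.90 in unchallenged and 10.30, 10.41, 10.24 and 10.41 in challenged wild types, and fell by 0.44 ± 0.13 in log2 units (SE, limma adjusted p = 0.0296). In homozygotes it read 10.76, 10.81 and 10.75, then 10.60, 10.10, 10.21 and 9.90, and fell by 0.57 ± 0.14 (adjusted p = 0.00961). No challenged array reached the lowest unchallenged array of its genotype. The wild-type call ended without unchallenged array 2, 3 or 4 or challenged array 1, 2 or 3 (-0.46 to -0.40, adjusted p = 0.0502 to adjusted p = 0.0837), and the homozygote call ended in a fit to only the groups compared (-0.57, adjusted p = 0.0615). With mean signal, which was lower on most challenged arrays, as a covariate neither call held (-0.16, adjusted p = 0.426, and -0.05, adjusted p = 0.896). With median scaling, which lowers the median of all probes, both did (-0.87 and -1.29). Its ubiquitous relative Cox7a2 gave 0.22 and 0.29 and was not called. Cox4i1 (0.21 and 0.35), Cox5a (0.29 and 0.35) and Cox6a1 (0.05 and 0.43), further nuclear subunits, were not called either. Cox4i2, the form of the fourth subunit known from lung, gave 0.04 ± 0.18 and 0.25 ± 0.19.

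ATP synthase had 5 of 15 members called higher in wild types and 4 in homozygotes, and 0 lower, with medians of 0.26 and 0.30. The shares called higher were 33.3% and 26.7%, against 9.8% and 13.5% of all probes. Atp5e, the epsilon subunit of the central stalk, read 8.34, 8.33, 8.41 and 8.45 in unchallenged and 9.33, 9.39, 9.08 and 9.55 in challenged wild types. In homozygotes it read 8.40, 8.56 and 8.35, then 9.42, 9.49, 9.71 and 10.02. The gap between the groups was wider than the range within any of them in wild types, and the change was 0.95 ± 0.14 (SE; limma adjusted p = 0.000480) and 1.23 ± 0.15 (adjusted p = 0.000140), 1.94-fold and 2.34-fold. These were the largest called changes of any member in wild types and in homozygotes.

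Atp5a1, the alpha subunit, read 10.66, 10.75, 10.43 and 10.53 in unchallenged and 11.23, 11.33, 11.10 and 11.47 in challenged wild types (0.69 ± 0.15 SE, limma adjusted p = 0.00576). In homozygotes it went from 10.52, 10.86 and 11.11 to 11.66, 11.37, 11.57 and 11.94 (0.80 ± 0.16, adjusted p = 0.00296). Its partner in the catalytic head, the beta subunit Atp5b, was not called: 0.15 ± 0.19 in wild types and -0.00 ± 0.20 in homozygotes. Atp5o, a subunit of the peripheral stalk, rose by 0.56 and 0.65 (adjusted p = 0.0450 and adjusted p = 0.0270). The small proteolipid Atp5mpl rose by 0.51 ± 0.11 in wild types (adjusted p = 0.00564) and 0.37 ± 0.12 in homozygotes (adjusted p = 0.0312). The second call ended without unchallenged homozygote 1 or 2 or challenged homozygote 1, 3 or 4 (0.31 to 0.37, adjusted p = 0.0525 to adjusted p = 0.117), and median scaling gave -0.22 there. That call also ended with the replicate number as a block, in a fit to only the groups compared, and with brown fat markers as a covariate (0.27 to 0.37, adjusted p = 0.0678 to adjusted p = 0.114). Of the genes Atp5g1, Atp5g2 and Atp5g3, which encode the same mature c subunit of the rotor, Atp5g1 was called in wild types (0.80 ± 0.20, adjusted p = 0.0126; 0.39 in homozygotes, adjusted p = 0.186). Atp5g2 gave 0.10 and 0.30 and Atp5g3 gave 0.26 and 0.30, uncalled. Probes of Atp5j disagreed in wild types: 0.36 (adjusted p = 0.0799) for the brightest and -0.50 (adjusted p = 0.0175) for ILMN_2611261.

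**Figure D2:**
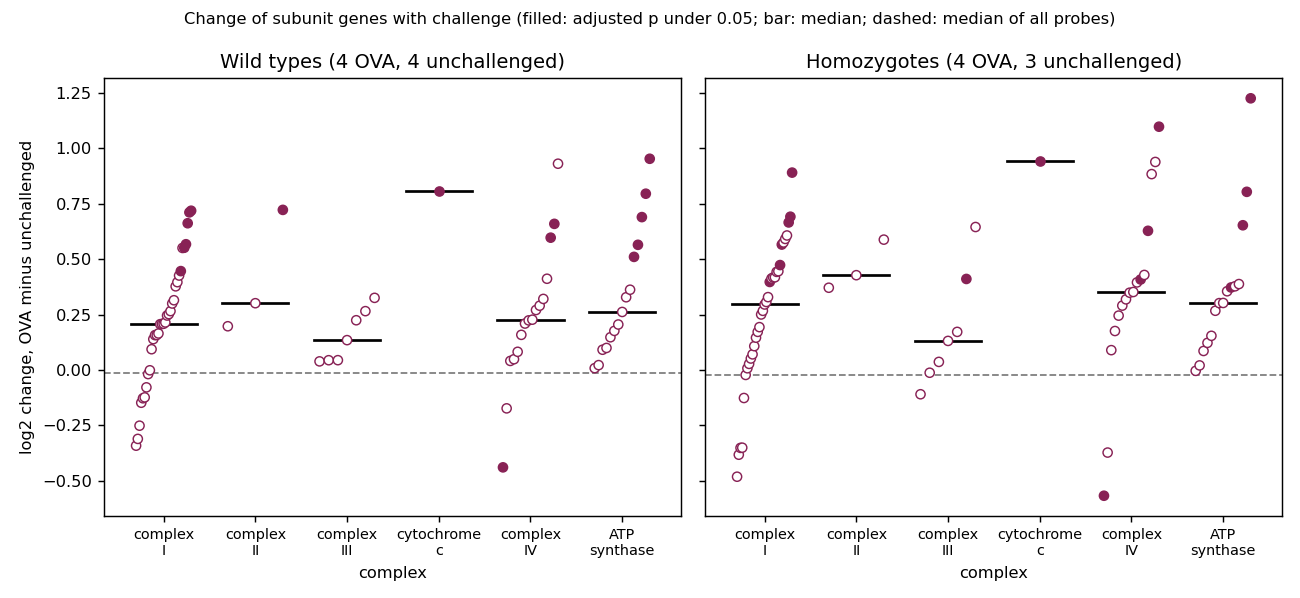
Fitted log2 change with challenge (OVA minus unchallenged, after quantile normalization) of each subunit gene, by complex, in wild types (left) and homozygotes (right); filled points have an adjusted p under 0.05, bars are medians and the dashed line is the median of all probes. Every complex has its median above the dashed line, the filled points include Atp5e at 0.95 and 1.23, and under median scaling the members' median turns to -0.14 and -0.31.

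**Figure D3:**
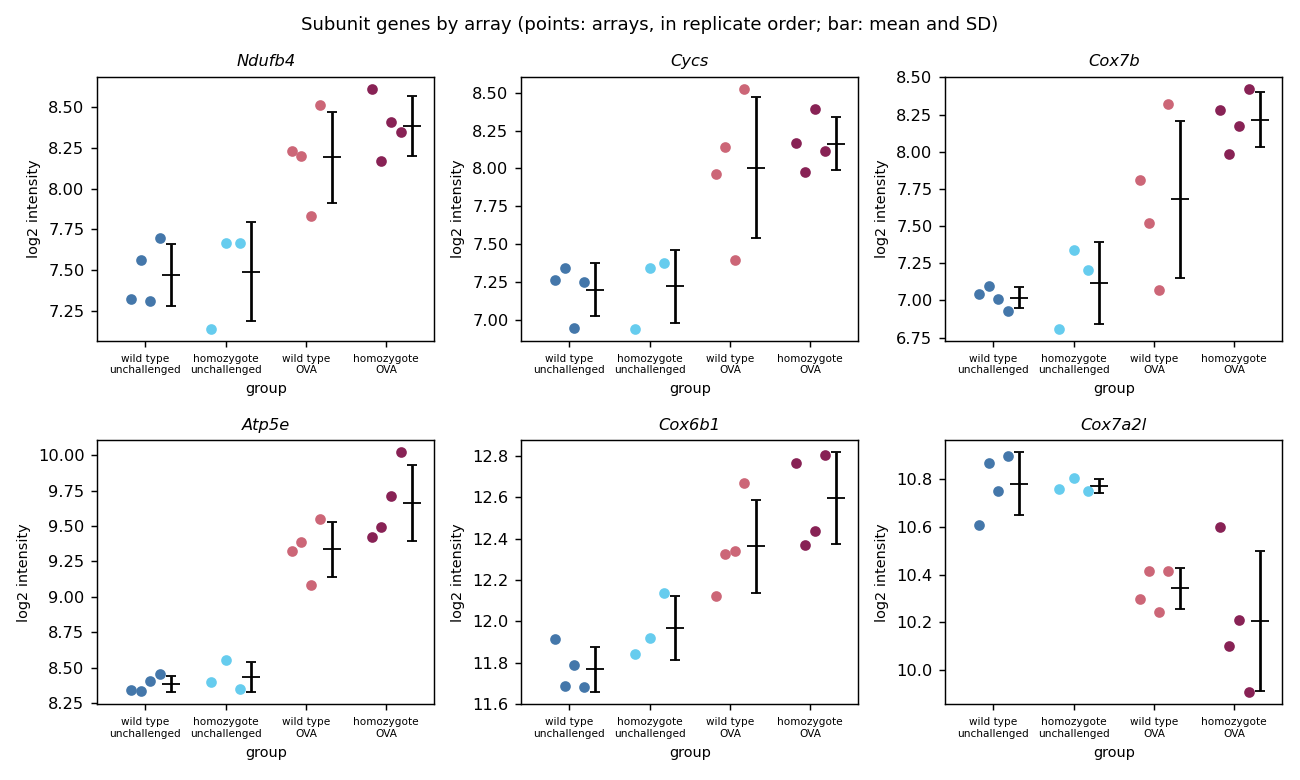
Log2 intensity of 6 subunit genes on each array by group, with the mean and SD beside the points; values are comparable between groups within a gene, not between genes. Atp5e separates challenged from unchallenged arrays in both genotypes, Cox7b does so in homozygotes, and Cox7a2l is lower with challenge (with median scaling Atp5e stays higher and Cox7a2l lower in both genotypes, and the others are not called).

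Cox6a2, Cox7a1 and Cox8b are forms of complex IV subunits known from heart and skeletal muscle, and Cox7a1 and Cox8b also from brown fat. Cox8b read 8.36, 9.01, 9.49 and 8.12 in unchallenged and 5.68, 9.55, 8.02 and 11.04 in challenged wild types; in homozygotes it read 8.52, 10.08 and 10.24, then 11.28, 9.77, 10.34 and 10.59. Challenged wild types 1 and 4 held the lowest value and the second highest of all arrays. Cox7a1 read 8.78, 9.06, 8.95 and 8.32, then 8.40, 10.03, 8.94 and 11.46 in wild types, and 8.52, 9.65 and 9.81, then 10.70, 9.33, 10.08 and 10.96 in homozygotes. Cox6a2 was highest in challenged wild type 4, at 12.74, and lay between 10.04 and 11.58 on the other arrays.

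None of the 3 was called in a challenge comparison. The changes in wild types and homozygotes were -0.17 ± 0.83 and 0.88 ± 0.90 for Cox8b, 0.93 ± 0.54 and 0.94 ± 0.59 for Cox7a1, and 0.32 ± 0.42 and -0.37 ± 0.46 for Cox6a2 (SE), with errors well above those of the other members. Leaving them out kept the counts at 15 higher and 1 lower in each genotype, with medians of 0.22 and 0.31.

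Markers of the tissues that use these forms varied between arrays too. Cardiac muscle markers, 8 of 10 tested, averaged 8.91 to 11.54 in challenged wild types, with challenged wild type 4 highest, and 9.09 to 10.45 on the other arrays. Skeletal muscle markers, 9 of 10 tested, ranged from 6.5 to 10.13 and from 8.86 to 10.89 in unchallenged wild types and homozygotes, and from 5.19 to 11.73 and from 5.21 to 11.10 in the challenged groups. Neither muscle list held a called gene in the challenge comparisons. The brown fat markers that are no members, Ucp1 and Cidea, averaged 4.82 to 6.96 in unchallenged wild types, 5.37 to 8.91 in unchallenged homozygotes, 4.78 to 7.72 in challenged wild types and 8.42 to 10.41 in challenged homozygotes. Challenged homozygotes thus lay above every wild-type array in brown fat markers, and challenged homozygote 1 was highest, as it was in Cox8b. White fat markers, 3 of 7 tested, averaged 6.60 to 8.59 and 7.47 to 8.79 in unchallenged wild types and homozygotes. They averaged 6.49 to 8.90 in challenged wild types and 8.60 to 9.97 in challenged homozygotes. Of these 3, 0 were called in wild types and 1 was called higher in homozygotes (33.3%, against 13.5% of all probes).

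With the muscle marker level as a covariate, 15 members were called in wild types and 22 in homozygotes. With the brown fat level it was 14 and 11 (8 higher and 3 lower in homozygotes), with medians of 0.18 and 0.19, and without the 4 arrays high in pancreas genes it was 14 and 16. The share of all probes called in these fits is not given, so a shift of the array-wide call rate cannot be told from one of the members. These fits were chosen after seeing the data, and the part of muscle or fat in the subunit values was not tested beyond them. Markers of lung and blood cells were read beside the shares of all probes called. Those were 9.8% higher and 12.7% lower in wild types, and 13.5% and 17% in homozygotes. Endothelial markers stood at 8.89 to 9.83 on challenged and 10.04 to 10.41 on unchallenged arrays (3 of 4 lower in each genotype), proliferation genes at 7.65 to 9.32 and 6.19 to 7.43 (4 of 4 higher), and granulocyte markers at 8.31 to 9.58 and 7.17 to 8.26 (3 of 4 higher). Of 4 macrophage markers 3 rose in wild types and 2 in homozygotes. Of 7 ciliated cell markers 1 and 4 fell, or 14.3% and 57.1%, and the wild-type share was near that of all probes. Of 3 club cell markers 1 and 2 fell, or 33.3% and 66.7%. Of 7 markers of pericytes and smooth muscle 0 and 3 fell, and of 3 B cell markers 0 and 2 rose. Of 6 alveolar type 2 markers 1 rose and 2 fell in wild types, and 0 rose and 3 fell in homozygotes. Of 3 alveolar type 1 markers 1 and 2 fell, and of 2 T cell markers 0 and 1 rose. In whole lung, more or fewer cells of a type and more or less RNA per cell cannot be told apart, and the part of these shifts in the subunit changes was not tested.

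**Figure D4:**
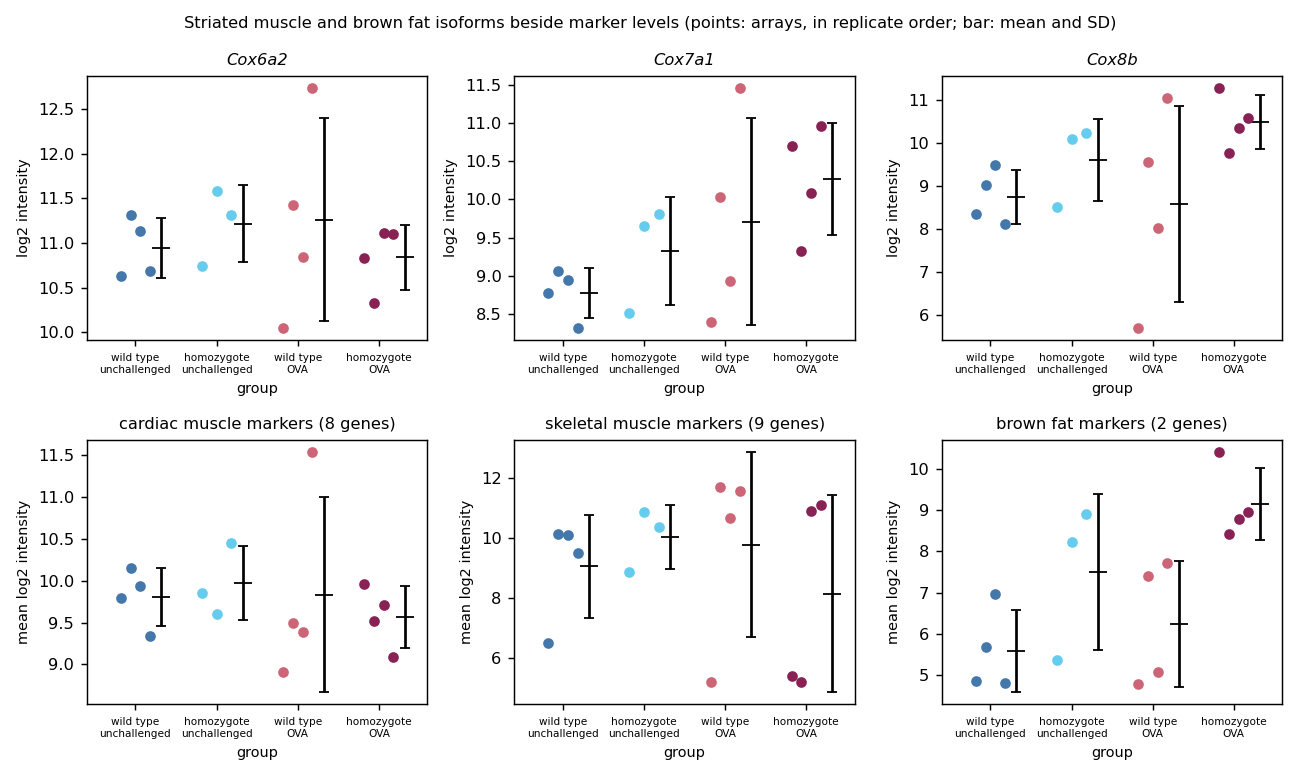
Log2 intensity of Cox6a2, Cox7a1 and Cox8b on each array (top) and the mean log2 intensity of cardiac muscle, skeletal muscle and brown fat markers on the same arrays (bottom), by group, with mean and SD. Challenged wild type 4 is highest in Cox6a2, Cox7a1 and cardiac muscle markers, and challenged homozygote 1 in Cox8b and brown fat markers.

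Homozygotes were next set against wild types. Without challenge, limma called 0 of 75 members, where 0.0139% of all probes were, and 0 had an unadjusted p under 0.05 against 2.60% of all probes. The median log2 difference, homozygote minus wild type, was 0.06, the members ranged from -0.19 to 0.87 (Cox8b), and the 95% interval lay within 1 either way for 72 of 75. The groups did not overlap for 8 members on the higher side and 1 on the lower, where 2.8% and 4.75% of all probes did not. With challenge, 0 members were called against 0.174% of all probes, and 5 had an unadjusted p under 0.05, against 12.7% of all probes.

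Those 5 were Cox8b at 1.92 ± 0.83 (SE; limma adjusted p = 0.354), Cox7b at 0.54 ± 0.21 (adjusted p = 0.300), Atp5a1 at 0.35 ± 0.15 (adjusted p = 0.349), Cox6a1 at 0.34 ± 0.15 (adjusted p = 0.376) and Atp5e at 0.32 ± 0.14 (adjusted p = 0.343); they are named after their values were seen. The 95% interval was 0.14 to 3.70 for Cox8b and 0.09 to 0.99 for Cox7b. The groups overlapped for all 75 members (background 4.16%), and the median difference was 0.14, or 0.08 above all probes with median scaling. With brown fat markers as a covariate the median genotype difference became -0.11 without and -0.14 with challenge. In the interaction, which asks whether the challenge acted differently in homozygotes, 0 members and 0% of all probes were called, and 0 members had an unadjusted p under 0.05 against 4.10% of all probes. The 95% interval lay within 1 either way for 68 of the 75; for Cox7b the interaction was 0.44, with an interval of -0.22 to 1.10, and for Atp5e 0.27, from -0.16 to 0.70.

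Genes that serve the chain were described beside it. Of 35 assembly factors tested, 3 rose and 2 fell in wild types and 5 rose and 1 fell in homozygotes, with medians of 0.10 and 0.12. The shares called higher, 8.57% and 14.3%, were near those of all probes, 9.8% and 13.5%. Cmc2, needed to build complex IV, rose by 0.82 ± 0.13 (SE; limma adjusted p = 0.000979) and 0.95 ± 0.14 (adjusted p = 0.000509), and Ndufaf5 and Ecsit, of complex I, rose in both genotypes. Cox15, which makes heme A, fell in wild types (-0.46 ± 0.11, adjusted p = 0.0105). Of 70 genes of the mitochondrial ribosome, which translates the subunits from mitochondrial DNA, 11 rose and 1 fell in wild types and 19 rose and 1 fell in homozygotes, with medians of 0.10 and 0.16; 15.7% and 27.1% were called higher. Mrps18c rose by 0.68 and 0.70 and Mrpl20 by 0.53 and 0.71.

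Of 11 regulators of mitochondrial biogenesis tested, 1 rose and 1 fell in wild types, or 9.09% each way, near the 9.8% and 12.7% of all probes. In homozygotes 3 rose and 1 fell (27.3% and 9.09% against 13.5% and 17% of all probes). The wild-type count went to 0 without unchallenged wild type 4 or challenged wild type 2. Ppargc1b, a coactivator of mitochondrial genes, rose by 0.76 ± 0.20 (SE; limma adjusted p = 0.0162) and 1.02 ± 0.22 (adjusted p = 0.00403). Nrf1, whose motif was described above, gave 0.22 in wild types (adjusted p = 0.173) and rose by 0.67 ± 0.12 in homozygotes (adjusted p = 0.00172). The GABP genes diverged in homozygotes, where Gabpb1 rose by 0.67 and Gabpa fell by 0.71 (adjusted p = 0.0182 and adjusted p = 0.0495). Of 12 genes of the tricarboxylic acid cycle, 3 rose in wild types and 2 in homozygotes, with Ogdh at 0.70 and 0.84 and Dld at 0.53 and 0.61. Those counts are 25% and 16.7%, against 9.8% and 13.5% of all probes called higher. Of 11 carriers and uncoupling genes, 2 rose in each genotype, or 18.2%, among them the outer membrane channel Vdac2 (0.41 and 0.61). Of 9 antioxidant and matrix genes 2 and 4 rose, or 22.2% and 44.4%, among them the chaperonin Hspe1 (0.81 and 0.78).

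Glycolysis, which makes ATP outside mitochondria, had 6 of 16 genes higher and 0 lower in wild types and 3 higher and 1 lower in homozygotes, with medians of 0.45 and 0.21. The share called higher was 37.5% in wild types, against 9.8% of all probes. In homozygotes it was 18.8% higher and 6.25% lower, against 13.5% and 17% of all probes. Hexokinase Hk3 rose by 1.28 ± 0.17 (SE; limma adjusted p = 0.000333) and 1.45 ± 0.19 (adjusted p = 0.000196), and lactate dehydrogenase Ldha by 0.64 and 0.46. Of 9 genes of the hypoxia response, 1 rose and 1 fell in wild types and 3 fell in homozygotes. The wild-type shares, 11.1% each way, were near the 9.8% and 12.7% of all probes. In homozygotes 33.3% were lower, against 17%. Epas1, an oxygen-sensing factor strong in endothelium, fell (-1.48 and -2.28). With median scaling the lists turned as the members did, to 8 and 38 ribosome genes lower with 0 higher, 6 and 22 assembly factors lower with 0 higher, and medians below 0 except glycolysis in wild types (0.10). Leaving out single arrays changed the smaller counts by over 1.5 times, for instance to 3 glycolysis genes without unchallenged wild type 4 or challenged wild type 2, and to 11 ribosome genes in homozygotes without unchallenged homozygote 2.

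**Figure D5:**
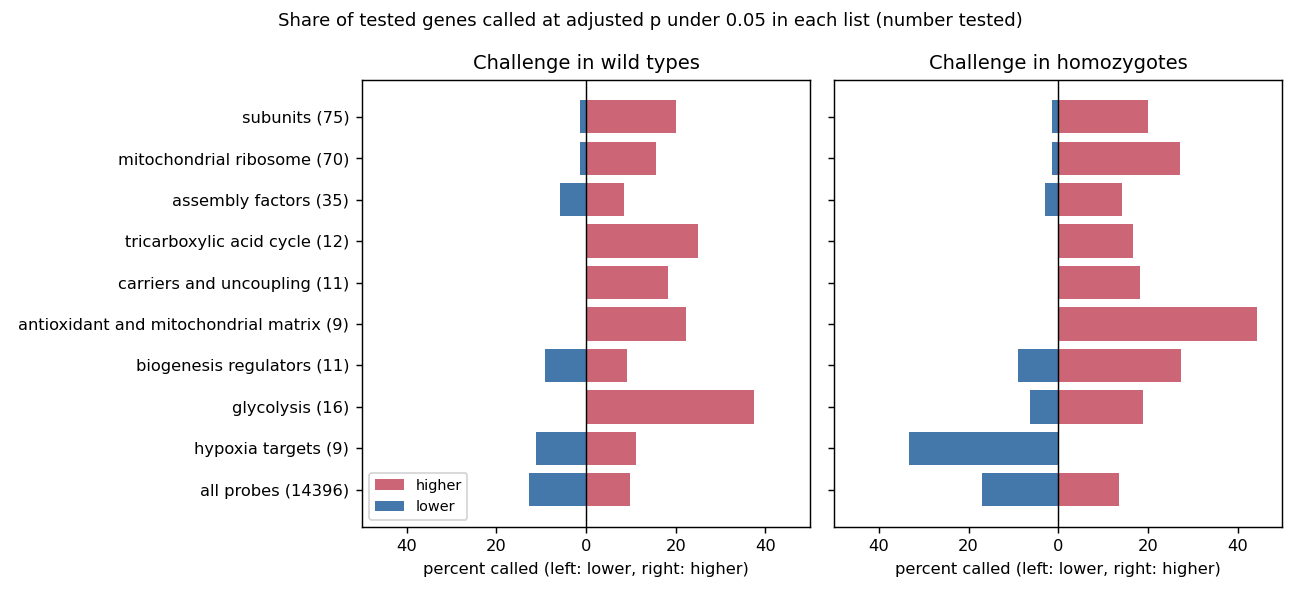
Percent of tested genes called higher (right of 0) or lower (left of 0) with challenge, in wild types (left panel) and homozygotes (right panel), after quantile normalization, for the subunits, 8 further lists and all probes; numbers tested are in parentheses. Of the subunits 20% were called higher in each panel, against 9.8% and 13.5% of all probes, and with median scaling most calls are lower ones.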

How the data were processed

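RNA from the whole lungs of 15 mice was hybridised to Illumina beadchips, 1 mouse per array, grouped by the genotype and treatment in the labels. Per the labels' protocols, Trizol RNA was cleaned, checked on gels and amplified to biotin cRNA, and the submitters' processing notes name GenomeStudio 2011.1 without its role. The deposited table pairs, per the file headers, each of 25697 probes with an intensity on a linear scale and its detection p-value per array. The authors' series matrix, linear intensities of unstated normalization with 21.1% to 21.2% of values per array below 0, served as an alternative. Of the probes, 23978 have 1 symbol in the platform annotation, 0 several and 1719 none, and all 75 members matched RefSeq by Entrez identifier.

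From the deposited intensities, log2 values were computed in R 4.3.3 by the neqc function (limma 3.58.1; normexp background correction from the detection p-values, offset 16, quantile normalization). Probes detected at p under 0.05 on at least 3 arrays were kept, 14396 in all. Using lmFit and eBayes, 4 group means were estimated from all arrays together, leaving 11 residual degrees of freedom. Two-sided p-values were adjusted by Benjamini-Hochberg over those probes and called below 0.05. The procedure was tested on simulated data. The number of arrays limits the precision, and the files used give no chip or scan batch.

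The members, gene lists and tests were chosen with earlier results of these data known. Named members are core subunits, those with tissue-restricted isoforms, the largest called change in each direction per complex and comparison, the 5 smallest p-values where at least 10 were called, and genes with a contrary called probe; others named are called in a comparison or at the end of a range, and were chosen after their values were seen. Named genes of the other lists were chosen in that way too. Alternatives were other background correction, median scaling, the authors' values, other filters, array weights, a fit to the groups compared, mean signal as a covariate, the mean over probes, a block for the replicate number, and fits without each array in turn. The muscle, brown fat and pancreas alternatives were added after seeing the data.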

Additional observations from a re-analysis of the deposited data

Results flagged for a closer look

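In 8 of 87 groups of the 29 named members, the highest or lowest array lay farther from the next than Dixon's limit for 4 samples; chance gives about 1 in 20. All values are log2 intensities. Atp5b was 13.06 in challenged homozygote 2, where the others were 13.84 to 13.95. Atp5j was 12.70 in challenged wild type 4, the others 12.18 to 12.23. Atp5mpl was 11.87 in unchallenged wild type 2, the others 11.97 to 11.98. Cyc1 was 9.5 in unchallenged wild type 3, the others 9.70. Unchallenged wild type 1, the unchallenged array with the lowest mean signal (494.7), was high in 3 members: Cox8a at 12.64 (others 12.38 to 12.41), Ndufa3 at 11.18 (others 10.85 to 10.90) and Ndufs6 at 12.00 (others 11.75 to 11.79). Cox8a was 12.42 in challenged wild type 1, the others 12.75 to 12.78. The causes were not tested.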

How the results depend on the processing

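Of 23 called values of named members under 28 alternatives each, 559 of 644 stayed called in the same direction, 82 no longer passed and 3 changed sign. Atp5e stayed called in both genotypes under every one of the 28. Median scaling moved the members called in wild types to 3, and the medians to -0.14 (wild types), -0.31 (homozygotes), -0.11 (genotype with challenge) and -0.24 (interaction). In homozygotes it turned Atp5mpl to -0.22, Cox8a to -0.13 and Uqcr11 to -0.17. The uncalled Atp5j (-0.54), Cox4i2 (-0.50), Cox6b2 (-0.53) and Ndufv1 (-0.62) went below 0 with a limma adjusted p under 0.05. With this scaling the median log2 change of all probes is itself below 0. Array weights gave 29 members called in wild types. Mean signal as a covariate, which largely goes with challenge, gave 5 and 4. A fit to only the groups compared gave 9 in homozygotes. For array weights, mean signal and this fit the share of all probes called is not given, so a shift of the array-wide call rate cannot be told from one of the members. With brown fat markers as a covariate the genotype medians were -0.11 without and -0.14 with challenge. Their causes were not tested.

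With the replicate number as a block, 15 members were called in wild types and 10 in homozygotes. Over 21 same-numbered pairs the correlation of deviations ran from -0.11 to 0.50, and 9 were over 0.1. No different-numbered pairs were set beside them, so these values cannot decide whether the numbers pair the mice. Leaving out each array gave 11 to 19 members called in wild types and 9 to 25 in homozygotes (10 without unchallenged homozygote 1, 9 without unchallenged homozygote 2, 25 without challenged wild type 4), and 0 in the other comparisons. The medians ran from 0.10 to 0.31 in wild types, 0.28 to 0.39 in homozygotes, 0.04 to 0.11 for genotype without challenge, 0.04 to 0.26 for genotype with challenge and -0.03 to 0.18 for the interaction. Neither for these fits nor for the block is the share of all probes called given. Signal over background limits Cox8b and Ndufab1, each undetected on 1 array.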
